A study of Arabidopsis thaliana with 24 samples.

Results

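Terpene volatile genes were followed across the series as a group of 6 members among the 27416 genes counted. They were chosen by identity: the terpene synthases TPS02 (AT4G16730), TPS03 (AT4G16740), TPS04 (AT1G61120), TPS10 (AT2G24210) and TPS21 (AT5G23960), and the cytochrome P450 gene CYP82G1 (AT3G25180). RNA had been sequenced from 6-day-old Arabidopsis thaliana seedlings after 8 h with a compound or mock solution, with each library made from 5 to 8 seedlings. The 8 groups of 3 libraries were jaz9-1 with 2, 2e, 12 or mock, and the wild type Col-0 with 2, 2e, 12 or mock. jaz9-1 carries a T-DNA insertion in JAZ9 in the Col-0 background. Compound 2 is coronatine, a bacterial mimic of the jasmonate hormone, 2e is a stereoisomer of 2, and 12 is a further coronatine derivative. The series text gives 1 µM for each compound. The mutant is represented by a single insertion line. P-values of the main test rest on the spread between the 3 libraries within groups, estimated for all 8 groups together. They do not measure the spread of the compared groups alone.

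Plants release volatile terpenes after insect attack and after jasmonate treatment. Jasmonate is perceived by COI1 together with JAZ repressors, and loss of the repressors frees transcription factors such as MYC2. TPS04 is geranyllinalool synthase, which makes the precursor of the homoterpene TMTT from geranylgeranyl diphosphate, and CYP82G1 converts geranyllinalool to TMTT. TPS03 makes ocimene and farnesene, and TPS02 is its neighbour on the chromosome. TPS10 makes monoterpenes such as linalool, and TPS21 makes the caryophyllene of flowers.

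Of the 6 members, only TPS04 passed the count filter of the test, which asked for a level of 0.702 CPM or more in at least 3 libraries. CPM is the count of a gene relative to its library total, scaled by TMM. TPS02, TPS03, TPS10, TPS21 and CYP82G1 were too low to test, with 8 to 64 reads each over all 24 libraries, against 4969 reads on TPS04. TPS04 reached that level in 12 libraries, among them all 6 with 2. Libraries held 6226126 to 29404141 counts. Seedling shoot markers summed to 24616 to 41598 CPM, seedling root markers to 36.0 to 73.5 CPM, flower organ markers to 0.585 to 4.55 CPM, and seed storage markers to 0 to 53.4 CPM. Markers of a seedling were thus present in every library, with those of flowers at low levels. Seed storage markers were uneven, at 0.255 to 53.4 CPM in Col-0 with mock and 0.122 to 20.5 CPM in Col-0 with 12. They reached at most 3.56 CPM in the other groups, and their part was not tested. In whole seedlings, fewer cells of a type and less RNA per cell cannot be told apart.

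The targeted gene was read first. JAZ9 had 37.4, 41.6 and 52.1 CPM in jaz9-1 with 2, against 168.5, 185.1 and 185.1 CPM in Col-0 with 2. With mock it had 3.62, 2.25 and 2.205 CPM in jaz9-1, against 4.79, 4.91 and 3.01 CPM in Col-0. JAZ9 was lower in jaz9-1 with 2 (log2 fold change -2.05 ± 0.17 SE, adjusted p = 1.92e-09), with 2e (-1.83 ± 0.19 SE, adjusted p = 2.38e-07) and with 12 (-1.45 ± 0.19 SE, adjusted p = 1.34e-05), and did not pass the test with mock (-0.65 ± 0.27 SE, adjusted p = 0.256). With mock the libraries of the genotypes overlapped, and every library of the insertion line had reads on JAZ9.

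The stretches just before TPS04, the member that the results turn on, and before TPS03, the untested member with the most reads, are shown as 250 bases ending at the base before the annotated gene start. They were read from the RefSeq assembly TAIR10.1, with the annotation of that assembly, at chr1:22523385-22523634 for TPS04 and chr4:9407361-9407610 for TPS03, both on the plus strand. Capitals mark motif letters on either strand.
TPS04: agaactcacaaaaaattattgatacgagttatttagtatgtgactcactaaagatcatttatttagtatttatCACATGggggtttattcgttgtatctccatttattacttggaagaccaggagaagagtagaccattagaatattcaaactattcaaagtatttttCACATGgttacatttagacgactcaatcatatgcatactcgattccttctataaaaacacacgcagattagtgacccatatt
TPS03: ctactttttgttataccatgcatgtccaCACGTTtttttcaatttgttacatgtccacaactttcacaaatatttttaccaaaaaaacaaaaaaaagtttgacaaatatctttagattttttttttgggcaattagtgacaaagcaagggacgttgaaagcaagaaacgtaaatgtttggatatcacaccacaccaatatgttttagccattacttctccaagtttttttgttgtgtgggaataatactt
The letters searched on both strands were the G-box CACGTG, the T/G-box AACGTG and the GCC-box GCCGCC, and the E-box CACATG was added after the sequences had been seen. TPS04 held CACATG 177 and 82 bases before the start and none of the other letters. TPS03 held AACGTG, read on the opposite strand, 222 bases before the start. CACATG occurred in 11.2% of 26718 windows of the same length, AACGTG in 7.59%, CACGTG in 6.58% and GCCGCC in 1.85%. TPS02 held CACATG 172 bases before its start, TPS10 held AACGTG at 60 and CACATG at 102 bases, and the windows of TPS21 and CYP82G1 held none of these letters. A match is a description of the window.

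TPS04 spans 5202 bases of chromosome 1 with a coding length of 2634 bases, and no other annotated gene overlaps any of the 6 members. TPS02 and TPS03 lie in the same orientation on chromosome 4 with 1474 bases between them and 0 genes in between. Their coding sequences were identical at 1120 of 1514 aligned bases (74%). That was the lowest share among pairs of the terpene synthase members, and TPS03 with TPS04 had the highest (1160 of 1423 aligned bases, 81.5%). Bases set against a gap are left out of these shares. The coding lengths of TPS03 and TPS04 are 1698 and 2634 bases, so much of TPS04 was not compared. The shares therefore do not rank the pairs by likeness over their whole coding sequences.

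TPS04 was upregulated by 2 in both genotypes, and its level with 2 was lower in jaz9-1 than in Col-0. In jaz9-1 it had 408, 111 and 42 reads with 2, against 1, 18 and 9 reads with mock. In Col-0 it had 2040, 803 and 1411 reads with 2, against 7, 0 and 12 reads with mock. Every library with 2 lay above every library without it.

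Scaled for depth, TPS04 stood at 26.5, 14.4 and 7.99 CPM in jaz9-1 with 2, against 0.145, 1.35 and 0.863 CPM in jaz9-1 with mock. The log2 fold change was 4.24 ± 0.50 (SE, n = 3 each; 18.8-fold, adjusted p = 4.95e-08 in the edgeR quasi-likelihood test). In Col-0, TPS04 stood at 83.2, 75.1 and 62.6 CPM with 2, against 0.670, 0 and 0.611 CPM with mock. The log2 fold change was 7.25 ± 0.53 (SE, n = 3 each; 152-fold, edgeR adjusted p = 6.4e-13). TPS04 was the 1 member called in each genotype, where 29.2% of all tested genes were called in jaz9-1 and 23.1% in Col-0. Leaving out 1 library at a time, the log2 fold change in jaz9-1 ran from 3.67 to 4.88. The value of 4.88 was without replicate 2 of the jaz9-1 mock libraries, the mock library with the highest TPS04.

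**Figure D1:**
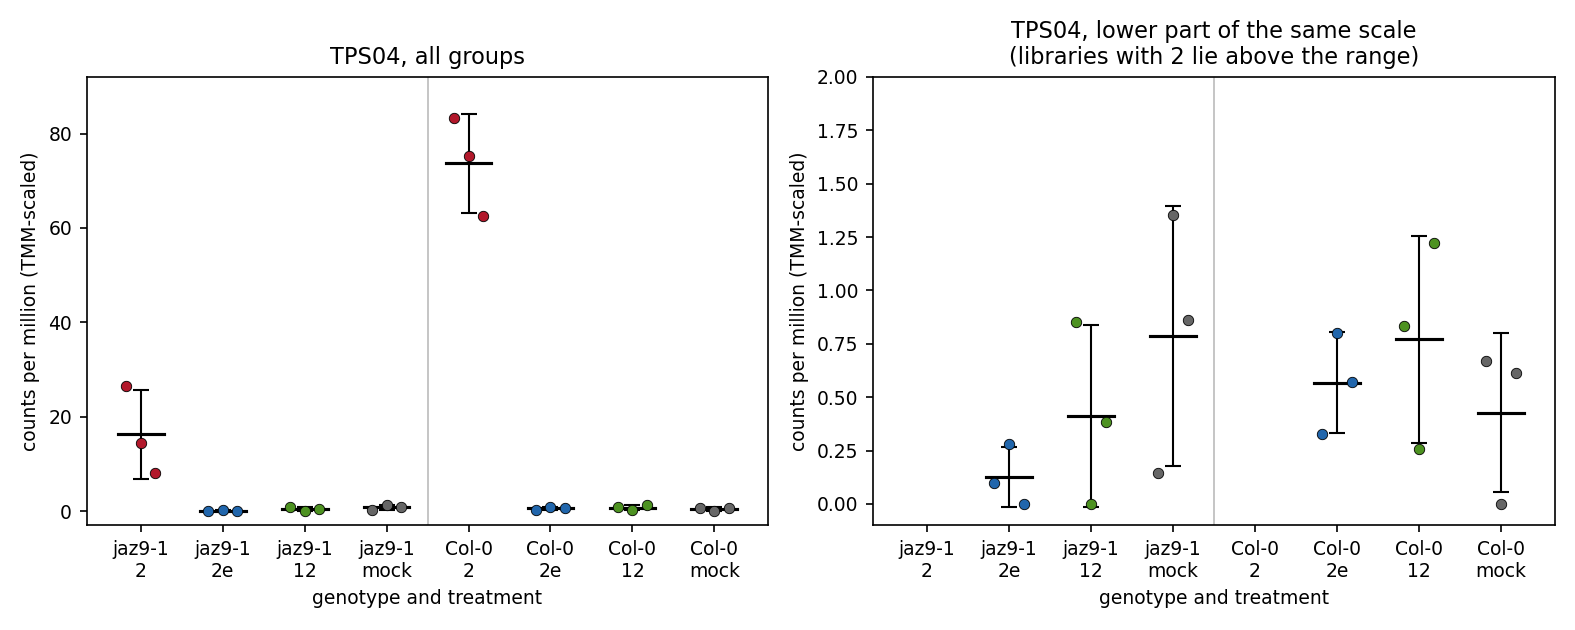
TPS04 in CPM (vertical axis) in each of 24 libraries, by genotype and treatment (horizontal axis). Points are libraries, lines and bars are the mean and SD of 3 libraries, and the right panel shows the lower part of the scale. The 3 libraries of jaz9-1 with 2 lay between 7.99 and 26.5 CPM and those of Col-0 with 2 between 62.6 and 83.2 CPM, above all others, which reached at most 1.35 CPM.

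The stereoisomer 2e gave no called change of TPS04. In jaz9-1, TPS04 had 0.0971, 0.279 and 0 CPM with 2e, against 0.145, 1.35 and 0.863 CPM with mock. The groups overlapped, and the log2 fold change of -2.82 ± 0.97 (SE) had an unadjusted p of 0.0067 and an edgeR adjusted p of 0.211. In Col-0, TPS04 had 0.329, 0.802 and 0.573 CPM with 2e, against 0.670, 0 and 0.611 CPM with mock. These groups overlapped as well, with a log2 fold change of 0.31 (95% interval -1.15 to 1.78, edgeR adjusted p = 0.973). None of the 6 members was called with 2e, where 1.97% of tested genes were called in jaz9-1 and 2.75% in Col-0.

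Compound 12 gave the same count of 0 members called. TPS04 had 0.851, 0 and 0.384 CPM in jaz9-1 with 12, inside the range of jaz9-1 with mock apart from the library at 0. The log2 fold change was -0.79 (95% interval -2.29 to 0.71, edgeR adjusted p = 0.797). In Col-0 it had 0.834, 0.257 and 1.22 CPM with 12, which overlapped the mock libraries, and the log2 fold change was 0.54 (95% interval -0.90 to 1.98, edgeR adjusted p = 0.916). The call rate over all tested genes with 12 was 2.5% in jaz9-1 and 3.05% in Col-0. These intervals span changes in either direction, so a rise of TPS04 within them was not detectable at 0 to 20 reads per library.

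Set directly against 2, given for the same time and at the stated common dose, both derivatives had lower TPS04. With 2e against 2 the log2 fold change was -7.06 ± 0.65 in jaz9-1 (SE, edgeR adjusted p = 2.93e-10) and -6.93 ± 0.49 in Col-0 (SE, edgeR adjusted p = 4.04e-13). With 12 against 2 it was -5.03 ± 0.53 in jaz9-1 (SE, edgeR adjusted p = 5.31e-09) and -6.71 ± 0.48 in Col-0 (SE, edgeR adjusted p = 6.09e-13). TPS04 was the 1 member called in each of these 4 comparisons, where 25.5% (2e, jaz9-1), 17.5% (2e, Col-0), 24.2% (12, jaz9-1) and 16.9% (12, Col-0) of tested genes were called. They share the libraries with 2 within a genotype. All 4 calls held when each library was left out. In jaz9-1 the value for 2e against 2 was -8.59 without replicate 2 and -6.33 without replicate 3 of 2e. That for 12 against 2 ran from -6.12, without replicate 1 of 12, to -4.46.

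Between the derivatives no member was called. TPS04 with 2e against 12 had a log2 fold change of -2.03 in jaz9-1 (95% interval -4.16 to 0.09, edgeR adjusted p = 0.753) and -0.22 in Col-0 (95% interval -1.47 to 1.02, edgeR adjusted p = 1). Over all genes, 0.0646% were called in jaz9-1 and 0% in Col-0, where 810 genes had an unadjusted p under 0.05. The interval in jaz9-1 reaches a much lower level with 2e, and neither interval shows that the compounds act alike.

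With 2, the libraries of jaz9-1 and Col-0 did not overlap in TPS04 (7.99 to 26.5 CPM in jaz9-1, 62.6 to 83.2 CPM in Col-0). The log2 fold change of jaz9-1 over Col-0 was -2.12 ± 0.36 (SE, n = 3 each; edgeR adjusted p = 0.000446), and TPS04 was the 1 member called, where 8.28% of tested genes (1665) were called. That count over all genes ran from 721 to 3051 when 1 library was left out, and moved by over 1.5 times without any 1 of the 3 libraries of Col-0 with 2, or without replicate 1 (3051) or 3 (721) of jaz9-1 with 2. The lowest level, 7.99 CPM, was in the library with the fewest counts of the series (6226126). Shoot markers summed to 33576 to 41598 CPM in jaz9-1 with 2, against 29715 to 30598 CPM in Col-0 with 2. All 4 shoot markers had reads in both groups, and their part in the difference was not tested.

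The other treatments gave no called genotype difference. With mock the log2 fold change of jaz9-1 over Col-0 was 0.88 (95% interval -0.65 to 2.42, edgeR adjusted p = 0.685). With 2e it was -2.25 (95% interval -4.20 to -0.31, edgeR adjusted p = 0.274), and with 12 it was -0.44 (95% interval -1.85 to 0.96, edgeR adjusted p = 0.89). In these 3 comparisons 0 members were called, where 2.53% (mock), 3.35% (2e) and 3.42% (12) of tested genes were called.

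Whether the response itself differed between genotypes was tested as the fold change in jaz9-1 minus that in Col-0. For 2 this difference was -3.01 ± 0.84 on the log2 scale (SE, unadjusted p = 0.00113), and it missed the threshold with an edgeR adjusted p of 0.124. Without the count filter it passed (-3.01 ± 0.52 SE, edgeR adjusted p = 3.14e-06). There the estimate was unchanged and the SE smaller, and the p-values made no allowance for having 3 libraries per group. Of all tested genes 0.741% (149) were called for this difference, and 0 members were. That count was 1272 without replicate 1 of jaz9-1 with 2 and moved by over 1.5 times without any 1 of the 12 libraries, down to 52. Leaving out replicate 1 of jaz9-1 with 2, the mutant library with the highest TPS04, moved the difference of TPS04 to -3.58 (edgeR adjusted p = 0.00843), and the adjusted p ranged from 0.00843 to 0.38 when each library was left out in turn. For 2e the difference was -3.14 ± 1.22 (SE, edgeR adjusted p = 1) and for 12 it was -1.33 ± 1.02 (SE, edgeR adjusted p = 0.94). For the response to 2e, 0% of genes were called by edgeR and 872 had an unadjusted p under 0.05, and for 12 the share called was 0.00497%.

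**Figure D2:**
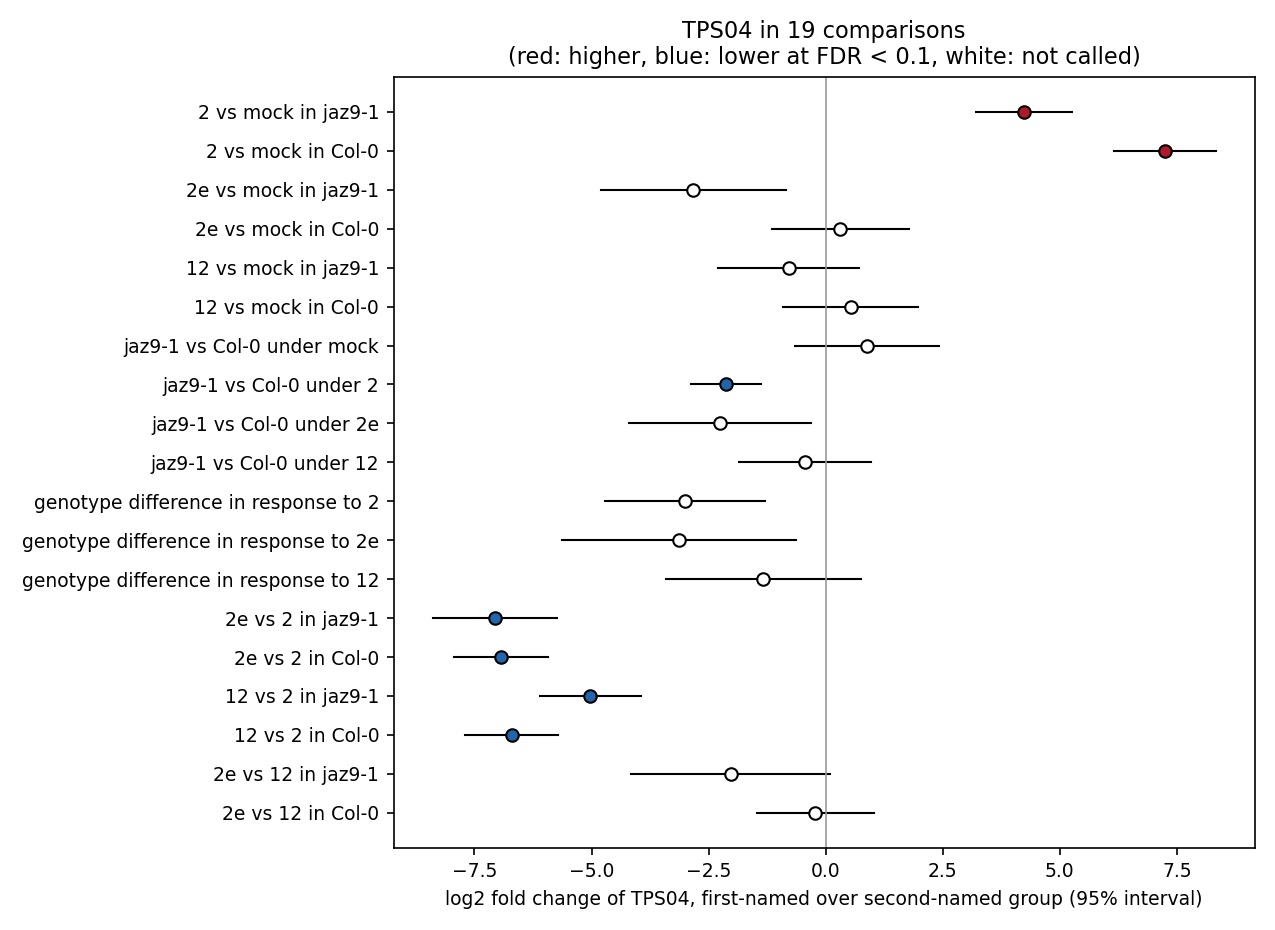
Log2 fold change of TPS04 (horizontal axis) in the 19 comparisons (vertical axis), with points for the estimate and lines for the 95% interval. Red points are higher, blue points lower and white points not called at an FDR of 0.1. Both comparisons of 2 with mock lie to the right (4.24 in jaz9-1, 7.25 in Col-0), and the called points to the left are the 4 comparisons of 2e or 12 with 2 and that of jaz9-1 with Col-0 under 2 (-2.12).

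Ranked by mean, TPS04 was highest in Col-0 with 2 (73.6 ± 10.4 CPM, SD, n = 3), followed by jaz9-1 with 2 (16.3 ± 9.40 CPM, SD, n = 3). Then came jaz9-1 with mock (0.787 ± 0.608 CPM), Col-0 with 12 (0.771 ± 0.485 CPM), Col-0 with 2e (0.568 ± 0.237 CPM), Col-0 with mock (0.427 ± 0.371 CPM), jaz9-1 with 12 (0.412 ± 0.426 CPM) and jaz9-1 with 2e (0.125 ± 0.142 CPM), each SD with n = 3. The first group did not overlap the second, nor the second the next. The 5 later pairs of neighbours overlapped, so their order did not differ beyond the spread.

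Among the untested members, TPS03 had reads only in libraries with 2. It had 9, 0 and 0 reads in jaz9-1 with 2, and 22, 25 and 8 reads in Col-0 with 2. All 18 libraries with 2e, 12 or mock were at 0. The 2 mutant libraries at 0 held 8428715 and 6226126 counts, fewer than any Col-0 library with 2. Among the Col-0 libraries with 2, the 25 reads were in the one with the fewest counts (11680629). The part of depth was not tested.

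Pooled over the group, TPS03 reached 0.317 CPM in jaz9-1 with 2 (exact 95% Poisson interval 0.145 to 0.602, counting error only) and 0.952 CPM in Col-0 with 2 (0.717 to 1.24). A group at 0 allows up to 3 counts, taken here as its limit. In jaz9-1 the pooled TPS03 level with 2 was 3.24 times the mock limit, from 1 library. In Col-0 it was 12.4 times the mock limit, from 3 libraries, 19.9 times the limit with 2e and 20.8 times that with 12. These ratios leave out the counting error of the reads with 2, so they are not least folds. In jaz9-1 the lower end of the Poisson interval, 0.145 CPM, lay near the mock limit of 0.0979 CPM, and 1 of 3 libraries had reads. In 2 libraries TPS03 passed 0.702 CPM, 1 short of the filter. Without the filter it passed the test for 2 against mock in Col-0 (edgeR adjusted p = 0.0357) and not in jaz9-1 (edgeR adjusted p = 0.225). The log2 fold change in Col-0 then was 7.20 ± 2.58 (SE), and the p-values of that fit made no allowance for having 3 libraries per group. With mock at 0 reads, the size of that value is set by the fit and is not a measured fold. For 2e against 2 and 12 against 2 in Col-0, where 2e and 12 were also at 0 reads, it was -7.20 each.

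CYP82G1, which acts next to TPS04 in the same route, stayed near 0. It had 0 reads in all 3 libraries of jaz9-1 with 2, against 5, 5 and 0 reads in Col-0 with 2. Elsewhere it had 5 reads in 1 library of Col-0 with 12 and 1 read in 1 library of jaz9-1 with 2e, and the mock libraries of both genotypes were at 0. In Col-0 the pooled level with 2 was 0.173 CPM, from 2 libraries, which is 2.25 times the limit that 0 reads allow with mock. The lower end of its Poisson interval, 0.0830 CPM, lay close to that limit of 0.0768 CPM. Without the count filter, CYP82G1 did not pass the test for 2 against mock in Col-0 (edgeR adjusted p = 0.274).

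TPS02 had 22 reads in 8 libraries. In Col-0 there were 0, 3 and 2 reads with 2, 0, 1 and 0 with 2e, 4, 0 and 8 with 12, and 0 in each mock library. In jaz9-1 there were 1, 0 and 1 reads with 2e, 0, 0 and 2 with mock, and none with 2 or 12. The reads were spread over treatments, and the 0 reads of jaz9-1 with 2 allow up to 0.106 CPM.

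TPS10 had 11 reads in 4 libraries, 0, 1 and 7 in Col-0 with 12 and 1, 0 and 2 in jaz9-1 with 2e. TPS21 had 8 reads, 7 of them in replicate 2 of Col-0 with mock and 1 in replicate 1 of Col-0 with 2e. Both were at 0 in every library with 2, which allows up to 0.106 CPM in jaz9-1 and 0.0519 CPM in Col-0.

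**Figure D3:**
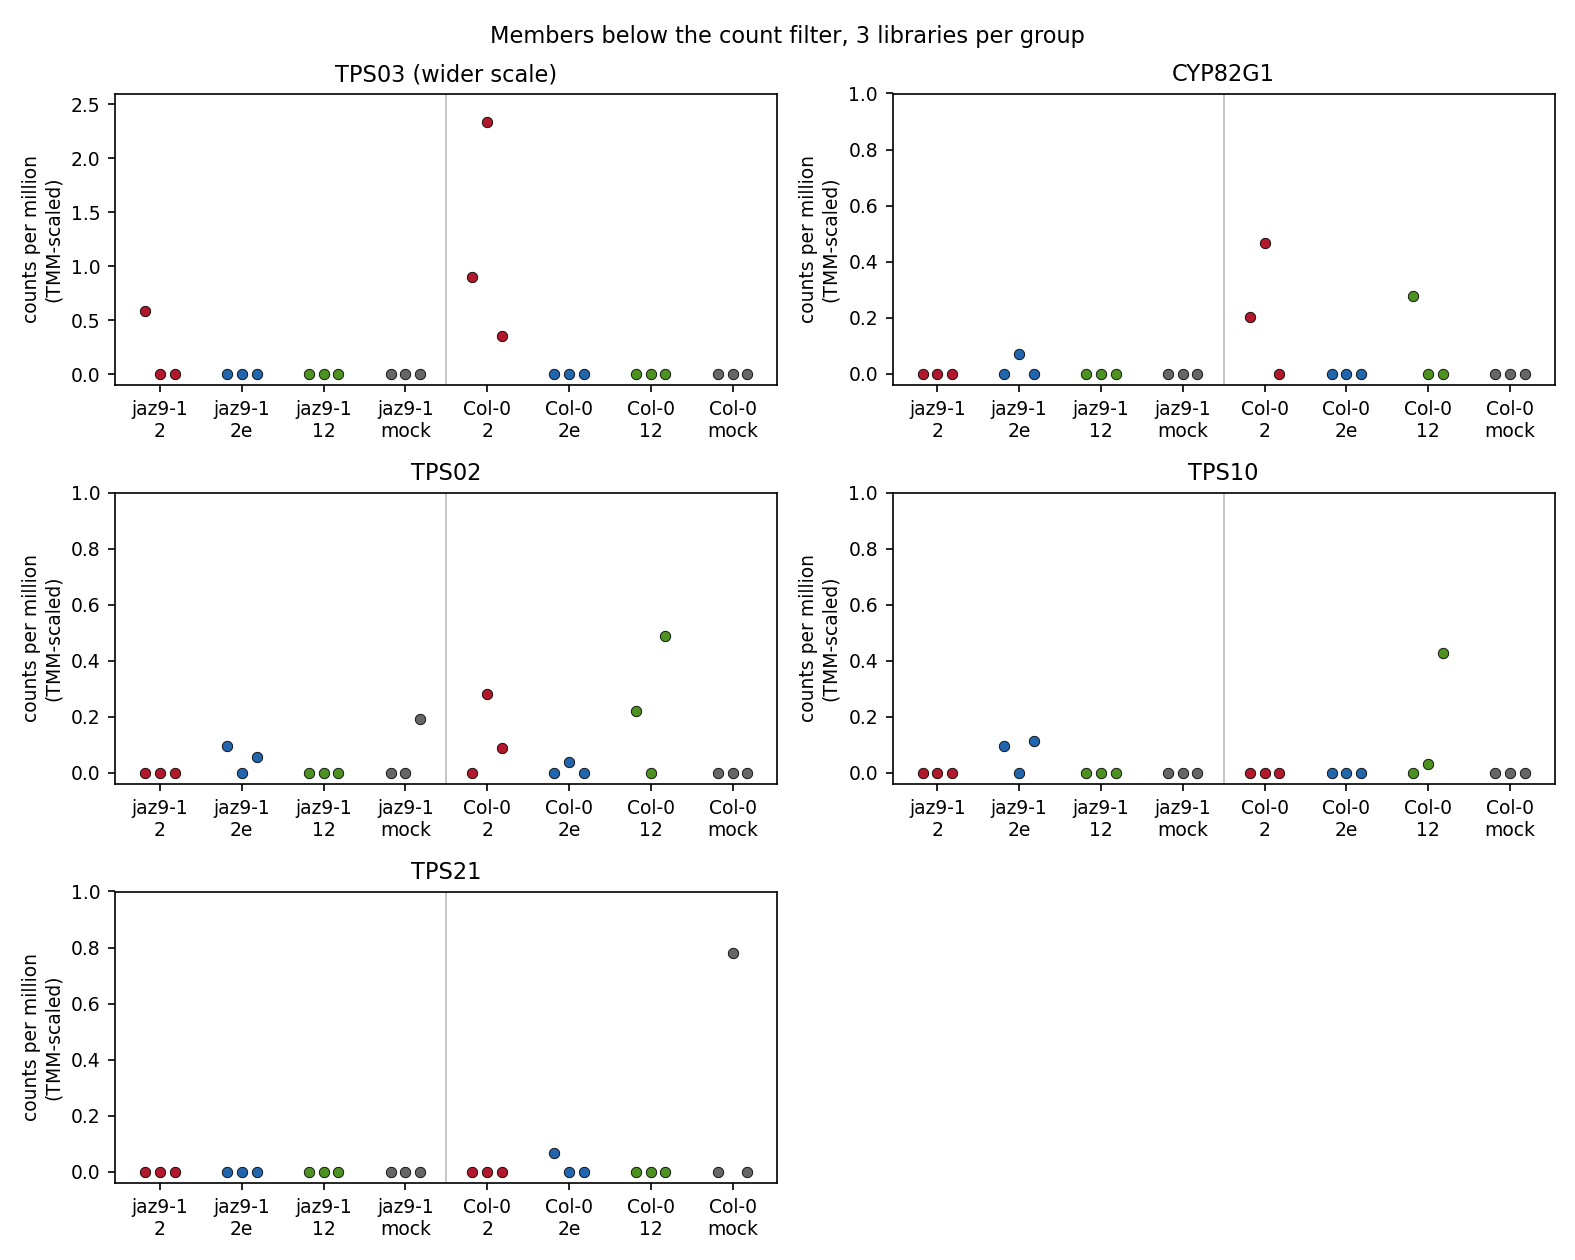
CPM (vertical axis) of the 5 members below the count filter in each library, by genotype and treatment (horizontal axis), with points for libraries. TPS03 lies above 0 only with 2, in 1 library of jaz9-1 and in 3 of Col-0 (highest 2.34 CPM), and the other members stay under 0.8 CPM.

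Genes that feed or neighbour the route were read from lists of known pathway genes. With 2, the mevalonate pathway, which makes isoprenoid precursors in the cytosol, had 4 of 8 tested genes higher and 0 lower in each genotype. Over all tested genes, 14.9% were higher and 14.2% lower in jaz9-1, and 11.9% were higher and 11.2% lower in Col-0. The median log2 fold change was 0.37 in jaz9-1 and 0.34 in Col-0, beside -0.03 and -0.02 over all tested genes. HMG1, the HMG-CoA reductase, was higher by 1.72 ± 0.11 in jaz9-1 and by 1.295 ± 0.11 in Col-0 (log2, SE). HMGS, the HMG-CoA synthase, was higher by 1.14 ± 0.12 in jaz9-1 and by 1.27 ± 0.12 in Col-0. ACAT2 (0.47 in jaz9-1, 0.67 in Col-0) and MVD1 (0.54 in jaz9-1, 0.70 in Col-0) made up the rest.

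The plastid MEP pathway, the source of precursors for geranylgeranyl diphosphate in plastids, had a median log2 fold change with 2 of 0.17 in jaz9-1 and -0.06 in Col-0. Of 7 tested genes, 3 were higher and 1 lower in jaz9-1, and 2 were higher and 0 lower in Col-0. CLA1, the first enzyme, was higher by 0.28 ± 0.09 in jaz9-1 and 0.29 ± 0.09 in Col-0 (log2, SE). DXR, the second enzyme, was higher in Col-0 alone by call (0.33), with 0.17 in jaz9-1. In jaz9-1 HDR (0.20) and ISPF (0.23) were also called higher and ISPD (-0.48) lower. With library totals in place of composition scaling, which moves the median of all genes, 0 of the 7 were higher in either genotype and 2 in jaz9-1 and 5 in Col-0 were lower.

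Of 9 tested isomerase and prenyl diphosphate synthase genes, 3 were higher and 1 lower in jaz9-1 with 2, and 1 was higher and 0 lower in Col-0. AT2G18620, of the geranylgeranyl diphosphate synthase family, was higher by 1.77 ± 0.68 in jaz9-1 and 2.06 ± 0.66 in Col-0 (log2, SE). GGPS3 fell by 1.65 in jaz9-1, where the isomerase gene IPP2 (0.50) and GGR (0.47) were higher. With 2, jaz9-1 exceeded Col-0 in GGPS1 (0.33 ± 0.11, edgeR adjusted p = 0.0831), the main plastid geranylgeranyl diphosphate synthase, and in IPP2 (0.30 ± 0.10, edgeR adjusted p = 0.0838). These were 2 of the 9 genes, with 0 lower, where 8.28% of all tested genes were called in either direction. Both lay close to the threshold, and whether these calls hold under the alternatives was not tested. TPS04 had the opposite direction in that comparison. Shoot markers summed to 33576 to 41598 CPM in jaz9-1 with 2, against 29715 to 30598 CPM in Col-0 with 2, and their part was not tested.

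Among 27 other terpene synthase genes, 13 could be tested and 14 were too low. With 2, 3 were higher and 1 lower in jaz9-1, and 4 were higher and 0 lower in Col-0. TPS13, a bisabolene synthase of roots, was higher by 4.13 ± 0.56 in jaz9-1 and by 4.45 ± 0.57 in Col-0 (log2, SE). AT3G32030 (1.98 in jaz9-1, 2.70 in Col-0) and AT5G48110 (1.01 in jaz9-1, 1.47 in Col-0) were higher in both, AT4G20210 was called in Col-0 (1.67), and AT1G33750 was lower in jaz9-1 (-0.70). With 2e or 12, 0 of the 13 were called in either genotype.

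Of 6 CYP82 relatives and genes of the root homoterpene route, 3 were tested. PEN1, the arabidiol synthase, and CYP705A1, which cleaves arabidiol to release the homoterpene DMNT, were higher with 2 in both genotypes. CYP705A1 was higher by 3.86 ± 0.29 in jaz9-1 and 3.78 ± 0.30 in Col-0, and PEN1 by 3.25 ± 0.22 in jaz9-1 and 3.29 ± 0.21 in Col-0 (log2, SE). CYP82F1 was called in Col-0 (1.15). Root markers summed to 49.5 to 66.7 CPM with 2 and 56.7 to 73.5 CPM with mock in jaz9-1, and to 44.4 to 46.0 CPM with 2 and 48.4 to 60.0 CPM with mock in Col-0, and their part was not tested.

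This pair was also called with the derivatives. CYP705A1 was higher with 2e by 1.08 in jaz9-1 and 1.40 in Col-0, and with 12 by 1.22 in jaz9-1 and 1.10 in Col-0 (edgeR adjusted p from 0.004 to 0.0603). PEN1 was higher with 2e by 0.83 in jaz9-1 and 0.82 in Col-0, and with 12 by 0.84 in jaz9-1, while its 0.64 with 12 in Col-0 missed the threshold. A difference between these genes and TPS04 in response was not tested. No tested gene of the 5 lists was called for a difference between genotypes in its response to a compound.

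**Figure D4:**
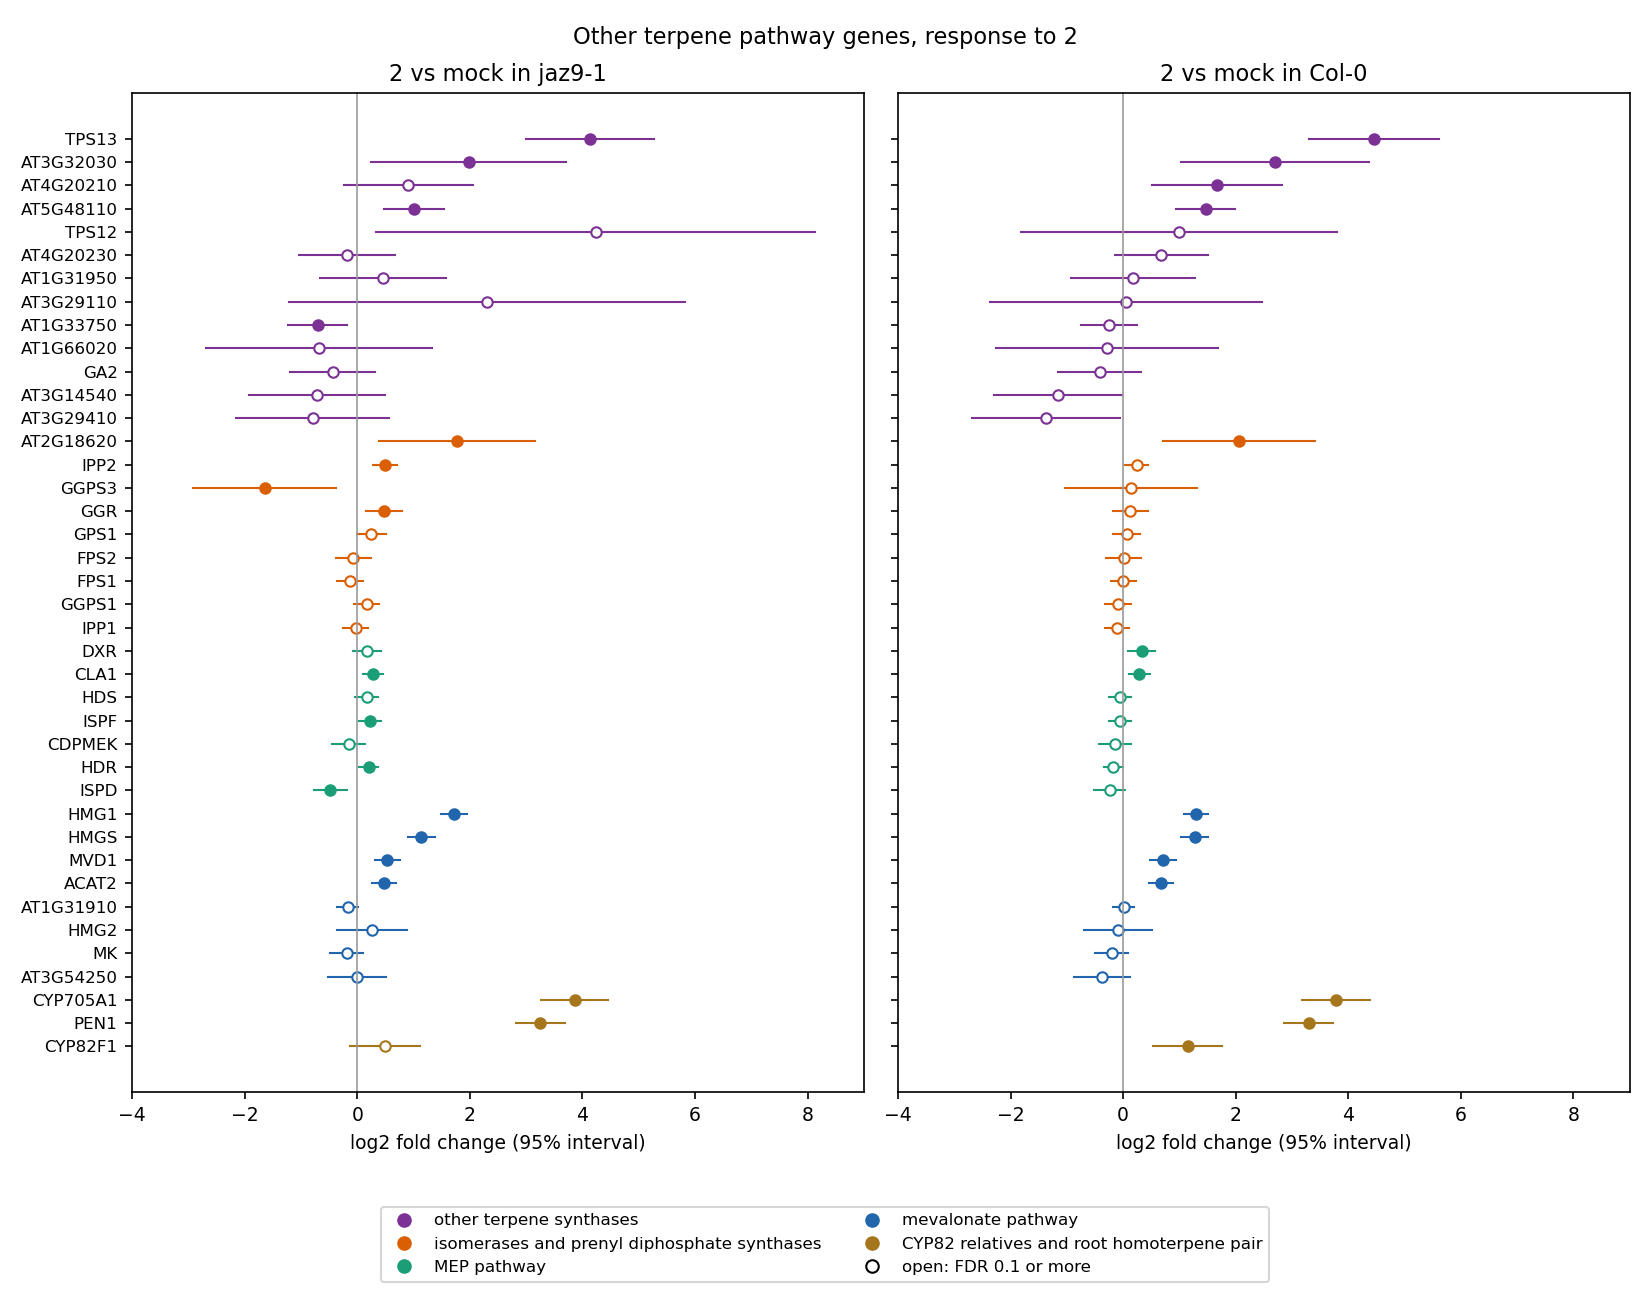
Log2 fold change with 2 over mock (horizontal axis) of the tested genes of 5 lists (vertical axis, coloured by list), jaz9-1 at left and Col-0 at right, with 95% intervals. Filled points passed an FDR of 0.1. TPS13, CYP705A1, PEN1, HMG1 and HMGS are filled in both panels, and most other genes lie close to 0.

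Genes whose log2 CPM ran most like TPS04 over the 24 libraries were ISU1 (Pearson r = 0.94), an iron-sulphur cluster scaffold, ATSDI1 (r = 0.936), a sulphur deficiency-induced gene, AT4G11310 (r = 0.932), AT2G44578 (r = 0.93) and MGD1 (r = 0.93), a galactolipid synthase. They were taken from 18296 genes and share the treatments, libraries and depth with TPS04. Over the 8 group means the 5 most similar genes were AT5G50460, AAS, AT1G36380, AT5G56610 and SVB, and 0 of 5 were shared. The choice of similar genes thus depended on whether libraries or group means were used.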

How the data were processed

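RNA was measured in 24 libraries. The deposited raw count table came from Trimmomatic 0.39 for trimming, HISAT2 2.2.1 for alignment (introns up to 5000 bases; the labels name TAIR10) and featureCounts 2.0.1, run by the authors on 1 strand over whole genes, introns included. A read counted where a fraction of 0.5 or more of it lay in a gene, and for every gene it met. The labels name TruSeq and Lasy-Seq, and the paper Lasy-Seq. A second deposited table, the same counts scaled by DESeq2 1.30.1 plus 8 unnamed values per gene, was not used.

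The analysis used edgeR 4.0.16 under R 4.3.3. Genes were filtered with filterByExpr (20109 of 27416 kept), scaled by TMM and fitted with 1 coefficient per group. Comparisons used the quasi-likelihood F-test with Benjamini-Hochberg adjustment over all tested genes, called below an FDR of 0.1. Poisson intervals of pooled CPM and limits for counts of 0 (3 counts over a group) cover counting error only. Intervals of log2 fold changes came from the quasi-likelihood test and include the spread between libraries. Groups came from the sample titles. Alternatives were DESeq2 1.42.0, limma 3.58.1 with quantile normalization, other scalings, no filter, thinning, a replicate block and leaving out each library.

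The members and lists were chosen with earlier results of these data known. Named are the 6 members and up to 4 genes per list with the lowest FDR over the 6 comparisons with mock; GGPS1, ISPF and AT1G33750 were named after their values were seen. On simulated counts for 2 against mock in Col-0 (19857 genes), the test recovered 68% of 2-fold and 85% of 4-fold changes, with 8.38% false calls. There only a small part of the genes was changed, evenly up and down, in the Col-0 libraries with 2, and none of the lowest genes. Counts were drawn from the fitted spread. In the data 23.1% of tested genes were called, so these rates hold for the simulated setting only. Identifiers were matched to RefSeq TAIR10.1 for 26719 genes. The files hold no coordinates, and those printed are of TAIR10.1.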

Additional observations from a re-analysis of the deposited data

How the results depend on the processing

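The 7 calls of TPS04 held under every alternative tried, and no TPS04 value that was called changed sign. Without the count filter (25320 genes), 2 members were called for 2 against mock, 2e against 2 and 12 against 2 in Col-0, TPS03 being the second, and 0 members were too low to test. TPS04 then passed for 2e against mock in jaz9-1 (-2.83, 1 member, edgeR adjusted p = 0.000259) and jaz9-1 against Col-0 under 2e (-2.26, 1 member, edgeR adjusted p = 0.00647). It also passed for the genotype difference in response to 2 (-3.01, 1 member, edgeR adjusted p = 3.14e-06) and 2e (-3.14, 1 member, edgeR adjusted p = 0.0204), and the cause was not tested. These estimates were close to those with the filter, while the SE of the difference for 2 was 0.52 in place of 0.84. The p-values of the fit without the filter are those of a normal distribution, with no allowance for 3 libraries per group.

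Replicate numbers did not pair the libraries: over 84 same-numbered pairs the correlation of deviations ran from -0.05 to 0.06, and 12 of 24 libraries correlated best with their own number. With the replicate block, the genotype difference in response to 2 became called for 1 member, TPS04 (-3.12 ± 0.83 SE, edgeR adjusted p = 0.097), and AT3G32030 in jaz9-1 with 2 was lost.

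The calls of list genes with 2 were lost more often than those of TPS04. Of 16 named genes called in jaz9-1, 4 kept the call in all 17 alternatives, 5 lost it only where a fold of 2.5 was also asked, and 7 lost it elsewhere (AT2G18620, GGR, GGPS3, ISPD, CLA1, HDR and AT3G32030). Of 14 called in Col-0 the numbers were 5, 5 and 4 (AT2G18620, CLA1, DXR and AT4G20210). Leaving out 1 library, the mevalonate count stayed at 4 higher in both genotypes and the MEP count ran from 1 to 3 higher in jaz9-1 and from 0 to 2 in Col-0. Counts over all genes moved by over 1.5 times in each of the 19 comparisons under some setting, for 2 against mock to 1626 of 5864 in jaz9-1 and 1482 of 4650 in Col-0 where a fold of 2.5 was asked. Those of jaz9-1 against Col-0 under 2 (1665) ran from 170 to 1027 and of the genotype difference in response to 2 (149) from 34 to 668 where settings moved them.

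Leaving out 1 library at a time, the genotype difference in response to 2 ranged from -3.58 to -2.37 with 0 to 1 member called, and 4 to 5 members were too low to test. Other counts of members and the 5 overlapping neighbours in the order of levels stayed as they were. With library totals alone the median of all genes with 2 against mock was -0.24 in jaz9-1 and -0.20 in Col-0, against -0.03 and -0.02 with TMM, and HDR in jaz9-1 turned to -0.0046, and to -0.016 under limma with quantile normalization. The 5 untested members had at most 25 reads in a library.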

Other observations

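The mevalonate genes were also read between compounds. With 2e against 2, 3 of the 8 tested genes were lower in jaz9-1 and 4 in Col-0, and with 12 against 2, 4 were lower in each genotype, with none higher. Over all tested genes, 25.5% were called in either direction in jaz9-1 and 17.5% in Col-0 with 2e against 2. With 12 against 2 the shares were 24.2% in jaz9-1 and 16.9% in Col-0. Shares of lower genes alone were not taken for these comparisons. Their median log2 fold change was -0.17 (2e) and -0.31 (12) in jaz9-1, and -0.28 (2e) and -0.27 (12) in Col-0. Of the 3 tested genes of the CYP82 and root homoterpene list, 2 were lower with 2e than with 2 in each genotype, and with 12 against 2, 2 were lower in jaz9-1 and 3 in Col-0. Between 2e and 12, 0 genes of these lists were called by edgeR in either genotype. In mock-treated seedlings HDR, the last enzyme of the MEP pathway, was lower in jaz9-1 than in Col-0 (log2 fold change -0.44 ± 0.08 SE, edgeR adjusted p = 0.00232), the 1 gene called there among the 7. HDR was also lower in jaz9-1 with 2e (-0.53 ± 0.08 SE, edgeR adjusted p = 0.000122) and with 12 (-0.38 ± 0.08 SE, edgeR adjusted p = 0.00706). With 2 it was not called (-0.06 ± 0.08 SE, edgeR adjusted p = 0.755). ISPF was lower in jaz9-1 with 2e as well (-0.31 ± 0.09 SE, edgeR adjusted p = 0.086).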
